A study of Mus musculus with 8 samples.

Results

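The 42 collagen genes of a mouse array were followed in mesenchymal stromal cells in which the interferon regulatory factor gene Irf7 was targeted by a short hairpin RNA. They were chosen by name alone, as every probe set with exactly 1 gene symbol made of Col, a number, the letter a and a number, and they are 42 of the 19505 genes measured, each with 1 probe set. Col7a1 and Col12a1 were not analysed here. The cells came from the inguinal fat pad of male FVB mice aged 12 months, were kept in high-glucose DMEM with serum and antibiotics, and in all 3 groups had been infected with the lentiviral vector pLKO.1. The vector was empty on 2 arrays, carried a scramble hairpin on 2 and a hairpin specific for IRF7 (shIRF7) on 4. The controls thus carry virus too, and whether arrays came from separate cultures, animals or infections is not stated in the labels. Each p-value below therefore rests on array-to-array spread, and that spread may be technical only. The series concerns Irf7 in the ageing of these cells.

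Collagens are trimers of alpha chains wound into a triple helix, and they make up most of the fibrous extracellular matrix that stromal cells lay down. Fibrillar collagens (types I, II, III, V, XI, XXIV and XXVII) assemble into banded fibres, of which types I and III dominate in loose connective tissue such as the stroma of fat. Network collagens form sheets, as type IV does in basement membranes and types VIII and X do in other matrices. FACIT collagens, fibril-associated collagens with interrupted triple helices, sit on the surface of fibres. The remaining types include the beaded filaments of type VI, which surround fat cells and fibroblasts, the basement membrane collagens XV and XVIII, and membrane-spanning types. Each chain is hydroxylated, folded and exported by a dedicated set of proteins before its ends are trimmed and the fibres are cross-linked.

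Values are the deposited log2 values of single arrays, and a difference of 1 between them is a doubling. Irf7 checked the labels: it lay between 9.55 and 9.76 on the 4 control arrays and measured 4.42, 5.66, 6.47 and 6.79 in shIRF7 replicates 1 to 4. Its log2 difference was -3.79 (SE 0.48, limma adjusted p = 0.0692), so Irf7 itself missed the threshold of 0.05 used below. The array carries 5222 negative control probe sets, whose 95th percentile ran from 7.93 to 8.72 over the 8 arrays, and 31.6% to 36.8% of all genes exceeded it on a given array. Of 8 stromal markers listed, 6 were measured, and Pdgfrb, Eng, Cd44 and Vim exceeded that percentile on all 8 arrays, Thy1 on 2 and Nt5e on none. Summed over these 6 genes, the log2 values were 72.8 to 73.9 on the control arrays and 71.8, 67.6, 68.3 and 70.3 on shIRF7 arrays 1 to 4. Of the 6, 4 were below 0 in shIRF7 against the controls, with a median of -0.24 and Thy1 lowest at -2.15, and the part of this in the collagen results was not tested. Of the markers of leukocytes (7 measured), endothelial cells (8) and epithelial cells (8), 0 exceeded it on any array. Of 8 adipocyte markers only Pparg did so on all arrays and Fabp4 on 4. The empty vector replicate 1 array stood apart: it gave the highest of the 8 values for 25 of the 42 collagen genes, and for 19.8% of all genes.

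Of the 42 collagen genes, 9 exceeded the negative controls' 95th percentile on all 8 arrays: Col1a1, Col1a2, Col3a1, Col5a1 and Col5a2 among the fibrillar chains, Col4a2 among the network chains, and Col6a1, Col6a2 and Col6a3 of the beaded filaments. A further 4, Col4a1, Col10a1, Col16a1 and Col18a1, did so on some arrays, and 29 on none. These 29 include every measured chain of the cartilage collagens II, IX and XI. Of the chondrocyte markers measured, Sox9 exceeded the percentile on all arrays and the other 7, Acan among them, on none. In genes near the negative controls, whose median lay between 4.18 and 4.56, the size of a difference is uncertain.

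The comparison of shIRF7 with both controls asks whether collagen expression differed in cells with less Irf7 mRNA. In limma over all genes, 0 of the 42 collagen genes rose and 0 fell at an adjusted p under 0.05, where 0.0308% of all genes passed, and the smallest adjusted p of a collagen gene was 0.187, for Col1a1. Without adjustment 5 collagen genes had a p under 0.05 and were lower in shIRF7, against 4.1% of all genes, and 0 were higher, against 4.01%. The 5 were Col1a1, Col1a2, Col2a1, Col5a2 and Col27a1, all fibrillar chains. In 4 of them, all but Col5a2, each shIRF7 array lay below each control array, which held for 2.8% of all genes, and no collagen gene lay above all controls on all shIRF7 arrays, as 2.58% of all genes did. The difference was below 0 in 33 of 42 collagen genes (49.7% of all genes), and the median difference was -0.22 against 0.0017 over all genes. Without empty vector replicate 1 that median was -0.060, with 24 of 42 below 0, and 3 genes (Col1a1, Col1a2 and Col27a1) had an unadjusted p under 0.05. Leaving out scramble replicate 2 also gave 3 such genes, and leaving out empty vector replicate 2 gave 9.

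**Figure D1:**
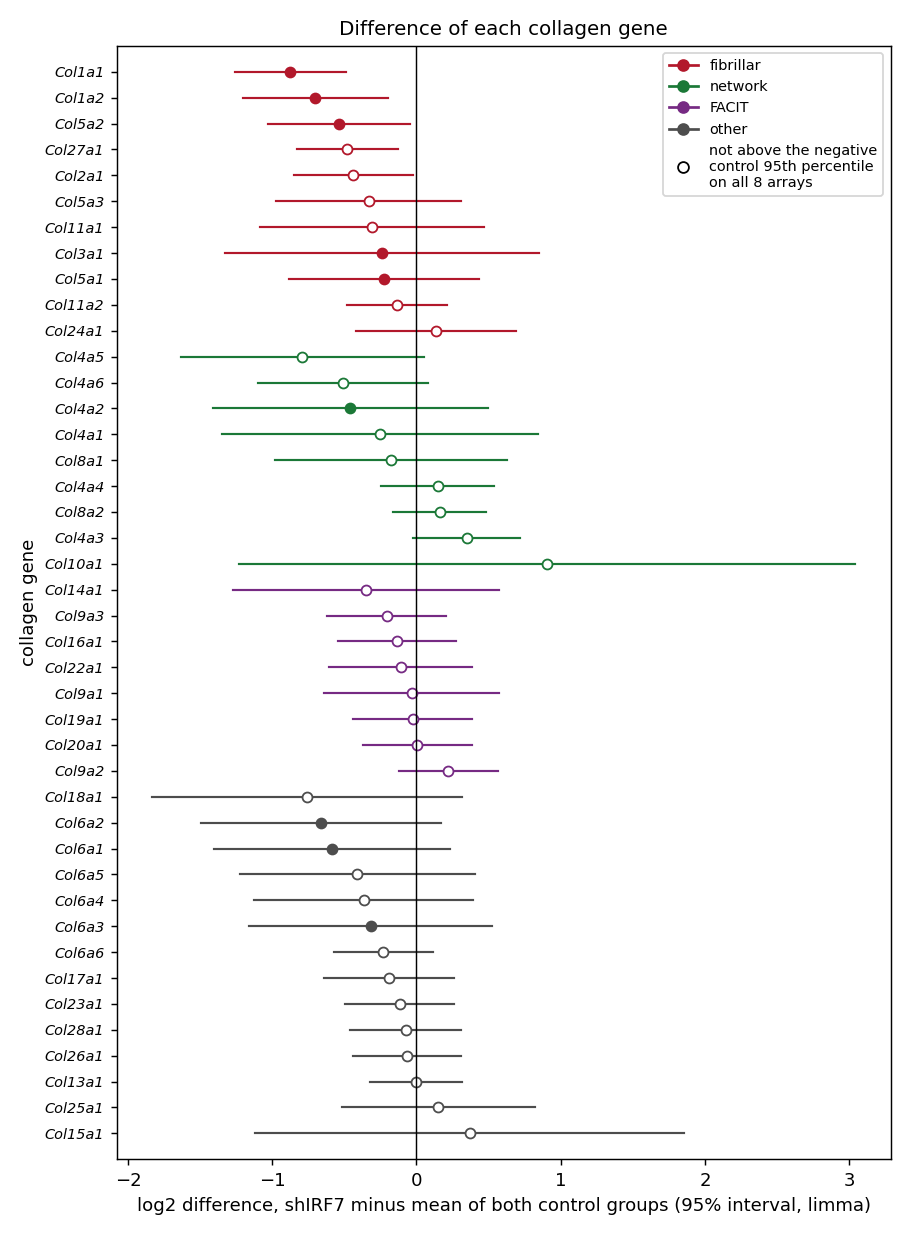
Log2 difference of each of the 42 collagen genes between shIRF7 (4 arrays) and the mean of both control groups (4 arrays), with limma's 95% interval as a bar and classes in colour. Filled points are the 9 genes above the negative controls' 95th percentile on all 8 arrays; the intervals of Col1a1, Col1a2, Col5a2, Col27a1 and Col2a1 lie wholly below 0.

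By class, the median difference was -0.33 over 11 fibrillar chains, -0.18 over 9 network chains, -0.072 over 8 FACIT chains and -0.21 over 14 other collagens. Fibrillar chains were below 0 in 10 of 11, network chains in 5 of 9, FACIT chains in 6 of 8 and the others in 12 of 14. The fibrillar median ranged from -0.57 (without empty vector replicate 2) to -0.26 (without empty vector replicate 1) when single arrays were left out. The network and FACIT medians changed sign without empty vector replicate 1, to 0.14 and 0.12, and that of the other collagens was then -0.068. The network median was also above 0 without shIRF7 replicate 3 (0.020), -0.021 without shIRF7 replicate 2 and -0.49 without shIRF7 replicate 1, and the FACIT median was 0.0090 without scramble replicate 1. Whether the classes differ from one another was not tested.

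Type I collagen, the main fibre-forming collagen of connective tissue, is built of Col1a1 and Col1a2 chains, and both genes were measured well above the negative controls. Col1a1 measured 16.99 and 16.42 in empty vector, 16.52 and 16.29 in scramble, and 15.80, 15.70, 15.65 and 15.56 in shIRF7 replicates 1 to 4. The groups did not overlap, and the 4 shIRF7 arrays lay within 0.24 of one another while the controls spanned 0.70. The control mean was 16.55 ± 0.30 and the shIRF7 mean 15.68 ± 0.10 (SD, n = 4 arrays each). The log2 difference was thus -0.88, with SE 0.17 and a 95% interval from -1.26 to -0.49, which is 1.84-fold lower in shIRF7. That missed the threshold over all genes (limma adjusted p = 0.187), and the exact two-sided permutation test of 4 against 4 arrays gave p = 0.0286, the smallest it allows and the p of any gene whose groups do not overlap (2.8% of all genes lower in shIRF7 and 2.58% higher). The Col1a1 difference was -0.73 against scramble and -1.02 against empty vector, and -1.02 to -0.73 when each array was left out in turn. It was -0.95 within replicate 1 and -0.66 within replicate 2, although the replicate numbers were not taken to pair shIRF7 with the controls.

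Col1a2 measured 16.48 and 16.12 in empty vector, 16.15 and 15.9999 in scramble, and 15.28, 15.76, 15.85 and 15.05 in shIRF7. Again no shIRF7 array reached the lowest control, but here replicates 1 and 4 lay below replicates 2 and 3. The log2 difference was -0.70 (SE 0.22, 1.63-fold lower, limma adjusted p = 0.446). It was -0.59 against scramble and -0.82 against empty vector, and -1.04 within replicate 1 and -0.30 within replicate 2. In the set of 42, Col1a1, Col1a2 and Col27a1 kept an unadjusted limma p under 0.05 in all 8 fits that left out 1 array.

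Col27a1, a fibrillar chain best known from cartilage, and Col2a1, the main chain of cartilage fibres, also had groups that did not overlap, but at levels not above background. Col27a1 measured 5.26 and 4.88 in empty vector, 4.86 and 4.84 in scramble, and 4.28, 4.53, 4.67 and 4.44 in shIRF7. Its log2 difference was -0.48 (SE 0.15, limma adjusted p = 0.467). Col2a1 measured 4.83, 4.18, 4.34 and 4.39 in the controls and 3.80, 4.06, 3.97 and 4.16 in shIRF7, a difference of -0.44 (SE 0.18, limma adjusted p = 0.590), or -0.28 without empty vector replicate 1, where its unadjusted p no longer passed. Col2a1 exceeded the median of the negative controls on only 2 arrays and Col27a1 on 7, so neither difference can be read as a fold.

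Type III collagen, encoded by Col3a1 alone, forms thin fibres together with type I, yet its array values ran differently. Col3a1 measured 16.84 and 16.14 in empty vector, 15.81 and 15.94 in scramble, and 14.63, 16.59, 16.80 and 15.76 in shIRF7. Replicate 1 of shIRF7 was the lowest of all arrays, replicates 2 and 3 lay above both scramble arrays, and the groups overlapped. The difference of -0.24 (SE 0.47, 95% interval -1.33 to 0.85, limma adjusted p = 0.949) was within the spread of 2.17 among the shIRF7 arrays. It was -1.70 within replicate 1 and 0.55 within replicate 2, 0.20 without shIRF7 replicate 1, and -0.062 without empty vector replicate 1.

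Type V collagen sits inside type I fibres and sets their width. Col5a2 measured 13.46 and 12.85 in empty vector, 12.88 and 13.27 in scramble, and 12.88, 12.25, 12.47 and 12.71 in shIRF7, so that shIRF7 replicate 1 overlapped the lower controls. Its difference was -0.54 (SE 0.21, 1.45-fold lower, limma adjusted p = 0.583), and the replicate 1 arrays alone gave -0.29, the replicate 2 arrays -0.81. Its partner chain Col5a1 measured 11.57, 10.61, 10.84 and 10.72 in the controls and 11.36, 10.50, 10.46 and 10.52 in shIRF7. The first replicates of empty vector and shIRF7 were both high, and the difference of -0.22 (SE 0.28, limma adjusted p = 0.910) became 0.017 without empty vector replicate 1. Col5a3, the third chain, measured 6.27, 5.97, 5.93 and 5.98 in the controls and 5.24, 6.13, 6.24 and 5.22 in shIRF7, not above the negative controls' percentile on any array. Its shIRF7 values fell into a low pair, replicates 1 and 4, and a pair at the control level, replicates 2 and 3. Its difference was -0.33 (SE 0.28, limma adjusted p = 0.845), or -0.18 and -0.17 without shIRF7 replicate 1 or 4, and -0.51 without replicate 3. The cartilage partners Col11a1 and Col11a2 differed by -0.31 and -0.14 (limma adjusted p = 0.886 and 0.888), and Col24a1, a fibrillar chain of bone, by 0.13 (limma adjusted p = 0.942). Without empty vector replicate 1, Col11a1 was at 0.036 and Col11a2 at -0.061.

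**Figure D2:**
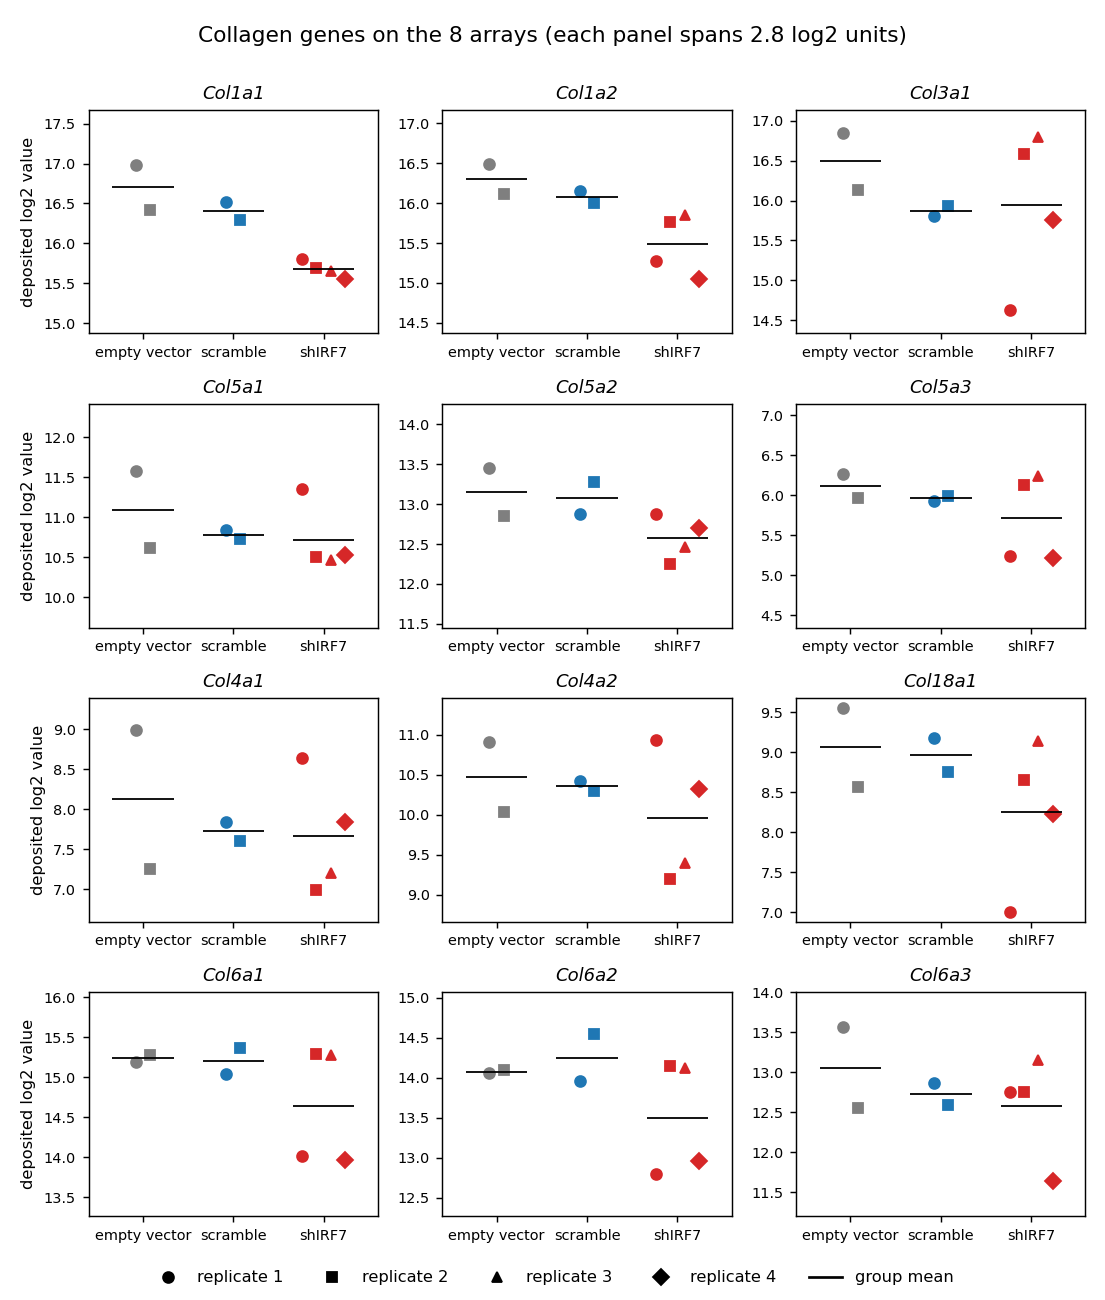
Deposited log2 values of 12 collagen genes on each array, by group, with a marker shape per replicate number and a line at each group mean. Every Col1a1 and Col1a2 point of shIRF7 lies below every control point, while Col6a1 and Col6a2 are low in shIRF7 replicates 1 and 4 only, and Col4a1 and Col4a2 are high in shIRF7 replicate 1 and low in replicates 2 and 3.

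The promoters of Col1a2 and Col27a1, whose groups did not overlap, and of Col3a1, whose groups did, are shown to set sequence beside these values. Each is the stretch of 250 bases before the RefSeq start of the gene, 5′ to 3′ on the gene's strand, in assembly GRCm38.p6. Capitals mark matches, on either strand, to TATAAA (the TATA box), CCAAT (bound by the factor NF-Y), GGGCGG (the GC box) or a pair of GAAA with 2 bases between them (a core of interferon response elements), and none of the matches overlapped.
Col1a2, chr6:4505368-4505617, plus strand: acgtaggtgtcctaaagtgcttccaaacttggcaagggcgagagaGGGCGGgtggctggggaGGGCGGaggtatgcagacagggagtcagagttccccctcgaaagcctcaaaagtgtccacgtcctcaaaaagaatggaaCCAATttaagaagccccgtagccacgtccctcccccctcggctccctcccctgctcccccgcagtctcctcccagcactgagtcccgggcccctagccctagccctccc
Col27a1, chr4:63215162-63215411, plus strand: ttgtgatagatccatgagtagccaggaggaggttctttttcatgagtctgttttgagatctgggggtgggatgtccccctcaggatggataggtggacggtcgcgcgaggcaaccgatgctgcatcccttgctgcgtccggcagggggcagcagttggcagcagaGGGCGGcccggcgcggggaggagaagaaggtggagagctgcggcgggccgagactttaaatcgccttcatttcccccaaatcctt
Col3a1, chr1:45311288-45311537, plus strand: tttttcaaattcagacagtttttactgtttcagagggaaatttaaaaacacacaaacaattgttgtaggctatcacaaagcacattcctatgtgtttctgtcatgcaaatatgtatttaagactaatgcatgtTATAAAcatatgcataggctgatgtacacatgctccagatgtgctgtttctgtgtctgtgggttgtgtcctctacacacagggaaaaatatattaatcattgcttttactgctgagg

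In Col1a2 the CCAAT match began 109 bases before the start and the 2 GC boxes 205 and 188 bases before it. Col27a1 held 1 GC box, 85 bases before its start, and Col3a1 a TATAAA match 117 bases before. The promoter table matched 34 of the 42 collagen genes with 37 such stretches. GGGCGG was found in 21 of the 37, or 56.8%, against 32.7% of the 32851 stretches of all genes, CCAAT in 32.4% against 33.8%, and TATAAA in 13.5% against 12.4%. The GAAA pair was found in 0 of the 37, against 2.98% of all stretches. A match is a string of letters in this window and was not tested as a binding site.

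Among network collagens, the type IV chains Col4a1 and Col4a2 form the common basement membrane trimer, and their genes lie head to head. Their RefSeq starts are 21 bases apart on chromosome 8 (GRCm38.p6). Col4a1 starts at position 11312826 on the minus strand and Col4a2 at 11312805 on the plus strand, so the genes overlap at their starts. Col4a1 measured 8.997 and 7.25 in empty vector, 7.84 and 7.61 in scramble, and 8.64, 6.99, 7.20 and 7.85 in shIRF7. Col4a2 measured 10.91, 10.04, 10.42 and 10.30 in the controls and 10.93, 9.19, 9.39 and 10.32 in shIRF7. Both genes were high on the first arrays of empty vector and shIRF7 and low in shIRF7 replicates 2 and 3, and both had overlapping groups. The differences were -0.26 (SE 0.47, limma adjusted p = 0.945) for Col4a1 and -0.46 (SE 0.41, limma adjusted p = 0.855) for Col4a2. They were 0.22 and 0.27 within replicate 1 and -0.44 and -0.98 within replicate 2, and Col4a1 stood at 0.18 without empty vector replicate 1. Col4a2 moved to -0.24 without that array, to -0.20 and -0.27 without shIRF7 replicates 2 and 3, and to -0.78 without shIRF7 replicate 1.

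Col4a5, a chain of the basement membranes of kidney and muscle among others, measured 7.66 and 6.03 in empty vector, 6.61 and 6.64 in scramble, and 6.17, 5.85, 5.43 and 6.33 in shIRF7. Its difference of -0.79 (SE 0.36, limma adjusted p = 0.641) comes from values not above the negative controls' percentile on any array, and the groups overlapped at the second empty vector array. It was -0.38 without empty vector replicate 1 and -1.20 without empty vector replicate 2. Col4a3, which pairs with Col4a5 in kidney, measured 3.73, 3.48, 4.30 and 3.83 in the controls and 4.00, 4.29, 4.25 and 4.20 in shIRF7, a difference of 0.35 (SE 0.16, limma adjusted p = 0.640) at the level of the negative controls. Col10a1, a marker of enlarged cartilage cells, had the widest range of the class. It measured 4.95 and 4.42 in empty vector, 6.96 and 4.15 in scramble, and 8.06, 4.53, 4.71 and 6.81 in shIRF7, a difference of 0.91 (SE 0.92, 95% interval -1.23 to 3.04, limma adjusted p = 0.878). It exceeded the negative controls' percentile on 1 array, shIRF7 replicate 1, without which the difference was 0.23; without scramble replicate 2 it was 0.21, and without scramble replicate 1 it was 1.61. Col8a1 and Col8a2, the partner chains of type VIII, differed by -0.18 and 0.16 (limma adjusted p = 0.948 and 0.848), and Col8a1 by -0.042 without empty vector replicate 1.

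FACIT differences ran from -0.35 to 0.22, and all 8 genes had a limma adjusted p of at least 0.780. Col14a1, a FACIT of dermis and tendon, measured 6.80 and 4.83 in empty vector, 6.03 and 5.52 in scramble, and 5.13, 5.51, 5.48 and 5.66 in shIRF7. The empty vector arrays spanned the whole range of this gene, and the difference of -0.35 (SE 0.40, limma adjusted p = 0.897) became 0.14 without empty vector replicate 1. Of the type IX chains, Col9a2 measured 3.98, 3.86, 4.19 and 4.14 in the controls and 4.54, 4.28, 4.12 and 4.11 in shIRF7, and Col9a3 5.54, 6.003, 6.13 and 5.999 against 5.995, 5.45, 5.60 and 5.81. Their differences of 0.22 and -0.21 (limma adjusted p = 0.780 and 0.848) and that of Col9a1 (-0.033, limma adjusted p = 0.988) did not share a direction. Without empty vector replicate 1, Col9a3 was at -0.32 and Col9a1 at 0.24. Col16a1, the only FACIT gene above the percentile on any array (3 arrays), ran from 8.18 to 9.002 and differed by -0.14 (SE 0.18, limma adjusted p = 0.914), or by 0.017 without empty vector replicate 1.

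Type VI collagen forms beaded filaments from the chains Col6a1, Col6a2 and Col6a3. Col6a1 measured 15.19 and 15.28 in empty vector, 15.05 and 15.37 in scramble, and 14.02, 15.29, 15.27 and 13.97 in shIRF7. Col6a2 measured 14.06, 14.10, 13.96 and 14.55 in the controls and 12.80, 14.14, 14.12 and 12.96 in shIRF7. In both genes shIRF7 replicates 1 and 4 lay about a log2 unit below every control while replicates 2 and 3 lay among the controls. The differences were -0.59 (SE 0.35, limma adjusted p = 0.751) and -0.66 (SE 0.36, limma adjusted p = 0.716), -1.10 and -1.21 within replicate 1, and -0.040 and -0.18 within replicate 2. Without shIRF7 replicate 1 they were -0.38 and -0.43, and Col6a1 was -0.36 without replicate 4. Col6a3 measured 13.56, 12.55, 12.87 and 12.59 in the controls and 12.75, 12.76, 13.16 and 11.65 in shIRF7. Of its shIRF7 arrays only replicate 4 was below the controls, and the difference was -0.32 (SE 0.36, limma adjusted p = 0.899), or -0.0058 without shIRF7 replicate 4 and -0.062 without empty vector replicate 1. Col6a4, Col6a5 and Col6a6 were not above the percentile on any array, with differences of -0.37, -0.41 and -0.23, or -0.12, -0.074 and -0.26 without empty vector replicate 1.

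Collagens XV and XVIII belong to basement membranes, and the end of collagen XVIII can be cut off as endostatin. Col18a1 measured 9.55 and 8.57 in empty vector, 9.18 and 8.76 in scramble, and 7.01, 8.65, 9.14 and 8.22 in shIRF7. Its difference was -0.76 (SE 0.46, limma adjusted p = 0.753), and -0.34 without shIRF7 replicate 1. It exceeded the negative controls' percentile on 4 of the 8 arrays only, so no fold is given. Col15a1 measured 5.60, 5.75, 4.17 and 5.47 in the controls and 4.05, 6.86, 6.54 and 5.01 in shIRF7, again with shIRF7 replicate 1 lowest but with replicates 2 and 3 above every control. The difference of 0.37 (SE 0.64, limma adjusted p = 0.941) was -0.83 within replicate 1 and 1.25 within replicate 2, and -0.045 without shIRF7 replicate 2. Col17a1, a membrane-spanning collagen of epithelial hemidesmosomes, measured 4.50 and 3.95 in empty vector, 3.34 and 3.64 in scramble, and 4.00, 3.59, 3.43 and 3.64 in shIRF7, near the negative controls. Each of the 21 collagen genes outside the rule for values on every array differed by between -0.51 and 0.91, with a smallest limma adjusted p of 0.681.

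**Figure D3:**
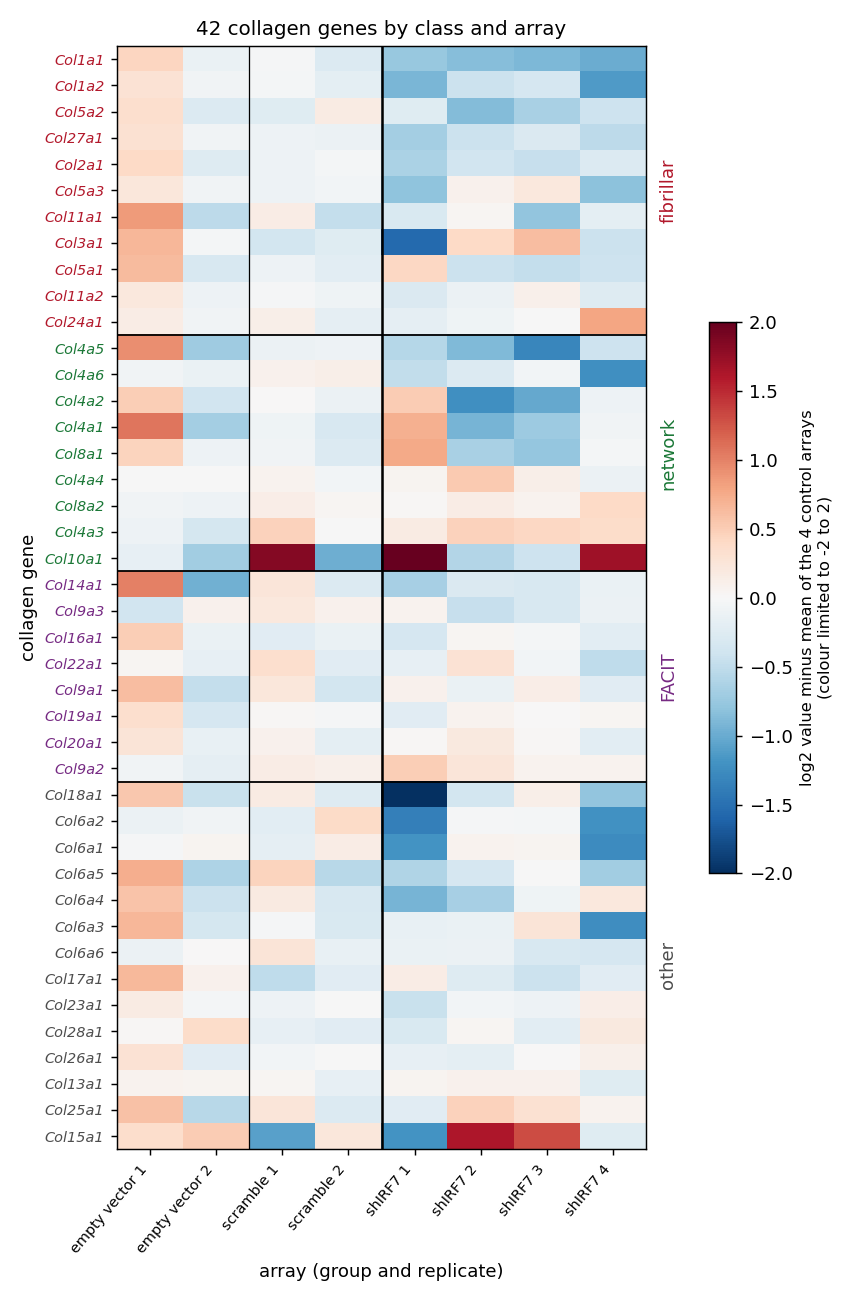
Deposited log2 value of each of the 42 collagen genes on each array, minus the mean of the 4 control arrays for that gene, in rows by class and columns by array; colour is limited to -2 to 2, which 2 cells exceed. The empty vector 1 column is above the control mean for most genes, the Col1a1 row is below it on all 4 shIRF7 arrays, and Col6a1, Col6a2 and Col15a1 split the shIRF7 arrays.

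Levels of contractile and pericyte markers moved with the split among shIRF7 arrays. Of 8 such markers Acta2, Cnn1 and Tagln exceeded the negative controls' percentile on all 8 arrays, Mcam on 1, and Myh11, Rgs5, Cspg4 and Des on none. Tagln measured 16.80, 13.16, 12.93 and 16.26 in shIRF7 replicates 1 to 4, and 13.95 to 16.04 in the controls. The log2 values of the 8 markers summed to 78.5, 57.7, 56.2 and 68.3 in shIRF7 and to between 62.4 and 69.1 in the controls. Among the 4 shIRF7 arrays, replicates 1 and 4 were higher in these markers than replicates 2 and 3. They were lower in Col6a1, Col6a2, Col1a2, Col5a3, Col3a1, Col15a1 and Col18a1, and higher in Col4a1, Col4a2, Col10a1, Col5a1, Col5a2 and Col8a1. These genes were picked out after their values were seen and are not all that split in this way. The sum of shIRF7 replicate 4 lay within the control range. Scramble replicate 1, the highest control at 69.1, measured 15.05 in Col6a1, 13.96 in Col6a2, 16.15 in Col1a2 and 5.93 in Col5a3. Each of these values lay above shIRF7 replicates 1 and 4. So did its values for Col3a1, at 15.81, and Col18a1, at 9.18, while that for Col15a1, at 4.17, lay between them. In Col4a1, Col4a2 and Col10a1 scramble replicate 1 measured 7.84, 10.42 and 6.96, close to the 7.85, 10.32 and 6.81 of shIRF7 replicate 4. In Col5a1, Col5a2 and Col8a1 it measured 10.84, 12.88 and 4.80, and shIRF7 replicate 4 measured 10.52, 12.71 and 4.83. The part of these markers in those differences was not tested. In RNA of whole cultures, fewer cells of a kind and less RNA per cell cannot be told apart.

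The 2 control groups were also taken singly, with the same 4 shIRF7 arrays in both comparisons. Against scramble, 0 of 42 collagen genes passed in limma (0.00513% of all genes did), 1 was lower at an unadjusted p under 0.05 (Col1a1; 3.27% of all genes) and 0 were higher (2.87%), and the median difference was -0.076, with 27 below 0 against 49.2% of all genes. Against empty vector, 0 passed (0% of all genes), 5 were lower at an unadjusted p under 0.05 (Col1a1, Col1a2, Col2a1, Col17a1 and Col27a1; 3.3% of all genes) and 1 higher (Col4a3; 2.54%), and the median was -0.36, with 35 below 0 against 49.4% of all genes. The latter median was -0.049, with 1 gene lower (Col1a1) and 1 higher (Col4a3) at an unadjusted p under 0.05, when empty vector replicate 1 was left out. When empty vector replicate 2 was left out it was -0.56, with 11 lower and 0 higher. Leaving out scramble replicate 2 put the median against scramble at -0.24, and leaving out scramble replicate 1 at -0.0047. Between the controls themselves, scramble against empty vector, 0 collagen genes passed (0% of all genes) and 1, Col17a1, was lower at an unadjusted limma p under 0.05 (1.15% of all genes), with 0 higher (0.779%). The median difference there was -0.11, with 32 of 42 below 0 against 50.5% of all genes, all 11 fibrillar chains among them. This direction rested on empty vector replicate 1: without it the median was 0.18, with 13 of 42 below 0. That fit sets empty vector replicate 2 against both scramble arrays. Control arrays of the same number deviated together, so it cannot tell replicate number from vector. At an unadjusted p under 0.05, leaving out empty vector replicate 2 gave 6 lower genes, and leaving out scramble replicate 1 gave 0. Col17a1 had the smallest p of the 42, with a difference of -0.73 (SE 0.27, limma adjusted p = 1.00).

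Genes that make, process, bind or regulate collagens were taken from lists written from general knowledge. Among 19 measured genes of collagen folding, modification and export, 0 rose and 0 fell over all genes in limma in shIRF7 against both controls, and without adjustment 4 were lower and 4 higher at p under 0.05, against 4.1% and 4.01% of all genes. In 5 of the 19 every shIRF7 array lay above every control, against 2.58% of all genes, and in 3 below, against 2.8%. By the rule of smallest p P4ha3 and Plod2 are named first. P4ha3, a catalytic subunit of prolyl 4-hydroxylase, which stabilises the triple helix, measured 13.28, 14.14, 13.09 and 13.47 in the controls and 14.25, 14.40, 14.48 and 14.75 in shIRF7. Its difference was 0.97 (SE 0.23, 1.96-fold higher, limma adjusted p = 0.285). Plod2, the lysyl hydroxylase of the collagen ends that sets the kind of cross-link, measured 10.10, 10.23, 9.71 and 9.77 in the controls and 11.71, 10.45, 10.79 and 11.51 in shIRF7, a difference of 1.16 (SE 0.29, 2.24-fold higher, limma adjusted p = 0.317).

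The other genes of this list without overlap were picked out after their values were seen. Plod1, the lysyl hydroxylase of the helix, Fkbp14, a prolyl isomerase of the endoplasmic reticulum, and P3h3, a relative of the prolyl 3-hydroxylases, had higher values by 0.91, 0.46 and 0.30. Serpinh1, the collagen chaperone, Mia3, which loads procollagen at exit sites of the endoplasmic reticulum, and Creb3l1, a transcription factor that activates type I collagen genes in bone, had differences of -0.52, -0.48 and -0.79. Creb3l1 measured 12.72, 13.00, 12.73 and 12.95 in the controls and 12.12, 12.23, 12.32 and 11.56 in shIRF7 (limma adjusted p = 0.329). The median of the list was 0.090, with 6 of 19 genes below 0. P4ha2, another prolyl 4-hydroxylase subunit, differed by -1.06, but by -1.68 against scramble and -0.44 against empty vector.

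Outside the cell, 16 of 18 listed genes that trim or cross-link collagens were measured, and 0 passed in limma; 1 of 16 was lower and 1 higher at an unadjusted p under 0.05, against 4.1% and 4.01% of all genes. Loxl4, a lysyl oxidase relative, measured 9.24, 9.74, 9.12 and 10.13 in the controls and 8.94, 8.35, 8.36 and 8.33 in shIRF7, a difference of -1.06 (SE 0.27, limma adjusted p = 0.324), with no overlap. Its values exceeded the negative controls' percentile on 6 of the 8 arrays, so no fold is given. Loxl3, of the same family, differed by 1.09 (SE 0.41, limma adjusted p = 0.561); the replicate 1 arrays gave 1.86 and the replicate 2 arrays 0.083, and the whole set 0.70 without empty vector replicate 1. Lox itself differed by -0.25. Pcolce2, an enhancer of procollagen trimming picked out after its values were seen, measured 8.88 to 9.37 in the controls, 9.47 and 8.90 in shIRF7 replicates 1 and 4, and 5.61 and 5.32 in replicates 2 and 3. Of 9 measured collagen receptors and uptake genes, 0 passed in limma; 1, Itga2, was higher at an unadjusted p under 0.05 (4.01% of all genes) and 0 were lower (4.1%). Itga2, the alpha subunit of a collagen-binding integrin, measured 3.90 to 4.12 in the controls and 4.26 to 5.32 in shIRF7 (difference 0.79, limma adjusted p = 0.415), not above the negative controls' percentile on any array. Lair1, an inhibitory collagen receptor of leukocytes, differed by -0.30 (limma adjusted p = 0.710) and was below the negative control median on all arrays.

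Of 14 genes of TGF-beta signalling, the main inducer of collagen genes in fibroblasts, 0 passed in limma (0.0308% of all genes did). At an unadjusted limma p under 0.05, 0 were lower and 0 higher, against 4.1% and 4.01% of all genes. The median difference was -0.19. Smad3, which carries the signal to collagen promoters, measured 12.87, 11.77, 12.23 and 11.79 in the controls and 11.65, 11.55, 11.59 and 11.64 in shIRF7. All 4 shIRF7 arrays lay below all controls, as in 2.8% of all genes, and within 0.10 of one another. The difference was -0.56 (SE 0.24, limma adjusted p = 0.626), or -0.28 without empty vector replicate 1. That array was the highest for 8 of these 14 genes, against 19.8% of all genes. Smad4, the common partner of Smad3, differed by -0.25 (SE 0.14, limma adjusted p = 0.723). Of the ligands, Tgfb1, Tgfb2 and Tgfb3 differed by 0.13, -0.30 and -0.58, each with a limma adjusted p of at least 0.890, and by 0.43, -0.054 and -0.082 without empty vector replicate 1.

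**Figure D4:**
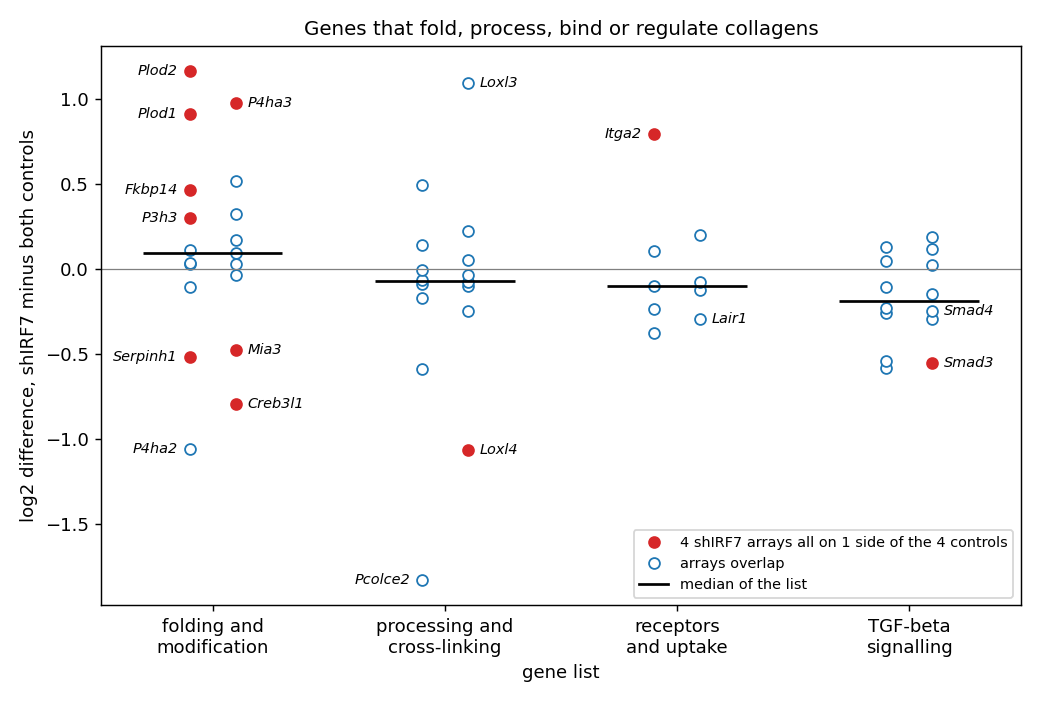
Log2 difference between shIRF7 and both controls for each measured gene of 4 lists, with a line at the median of each list; filled points are genes whose 4 shIRF7 arrays all lie on 1 side of the 4 controls. P4ha3, Plod1 and Plod2 lie near 1 while Creb3l1, Serpinh1 and Mia3 lie below 0, and the 4 medians lie between -0.19 and 0.090.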

How the data were processed

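Total RNA was labelled with biotin and hybridised to Affymetrix mouse arrays, 8 in all. The log2 values were deposited by the authors, who made them with RMA; the submitters' processing notes name Affymetrix Expression Console 1.4.1.46. Their range, 1.66 to 18.9, bears out a log2 scale. RMA equalises the distribution of values between arrays. Their genome build was not given in the sources used. Unused value columns numbered 0. The platform annotation gave a single symbol to 19572 of the 28846 probe sets, several to 0 and none to 9274; for 55 genes with several probe sets the one with the highest mean was kept, leaving 19505 genes.

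The means of the groups came from limma 3.58.1 (R 4.3.3, lmFit and eBayes, 5 residual and 2.68 prior degrees of freedom) over all 8 arrays and genes, with Benjamini-Hochberg adjustment and a threshold of 0.05. The fit was tested on simulated data, in 10 runs with 200 genes lowered in shIRF7. It recovered 40.8% of changes of 1 log2 unit, 80.8% of changes of 2 and 91% of changes of 3. The simulated arrays varied independently, and the 200 genes were lowered by 1 to 4 units, whereas 6 genes passed in the data. Irf7, at -3.79, missed the threshold, so recovery in these data may be lower than in the simulation. Every collagen difference against both controls was smaller than 1 in size. A count of 0 past the threshold therefore does not show an absence of change. Both control groups entered the joint comparison with equal weight. SE is limma's moderated standard error; unadjusted p-values come from the same fits. Within replicate 1 or 2 means the shIRF7 array of that number minus the mean of both controls of that number. The numbers were not taken to pair shIRF7 with the controls, so these are differences of single shIRF7 arrays and not matched replicates. The number of arrays limits the precision.

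Values on every array are given for collagen chains usual in stromal cells, members past the threshold in any comparison, the 2 smallest p-values of each class and of scramble against empty vector, and members whose groups did not overlap; for other lists the 2 smallest p-values. Col10a1 met none of these rules and was added for its range after its values were seen. Members, lists and alternatives were chosen with earlier results of these data known. Promoter sequences are RefSeq's, of GRCm38.p6. Alternatives were a filter on dim genes, trend and robust eBayes, cyclic loess, the mean of probe sets, pooled controls, the replicate block, each array left out and, added after seeing the data, the closest shIRF7 pair averaged.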

Additional observations from a re-analysis of the deposited data

Results flagged for a closer look

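In the 4 shIRF7 arrays each of the 42 collagen genes and their median were checked for an array far from the other 3, and 2 of these 43 sets had one; chance alone gives about 1 in 20. For Col5a1, the shIRF7 replicate 1 array, at 11.36, was far above the other shIRF7 arrays, whose values lay between 10.46 and 10.52. For Col13a1, a membrane-spanning collagen, shIRF7 replicate 4, at 4.94, was below the other shIRF7 arrays (5.23 to 5.26), all of them below the negative controls' 95th percentile.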

How the results depend on the processing

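The count of collagen genes past the threshold was 0 in all 4 comparisons under every alternative run. The median difference of shIRF7 against both controls kept its sign, from -0.32 to -0.060 with single arrays left out. With only genes whose mean exceeded the negative controls' 95th percentile (11 collagen genes) it was -0.54, against scramble -0.50 and against empty vector -0.57. In the main fit, the median against both controls was -0.54 over the 9 collagen genes above that percentile on all 8 arrays. It was -0.20 over the 4 above it on some arrays and -0.12 over the 29 above it on none. With single arrays left out the median of all 42 ranged from -0.24 to -0.0047 against scramble and from -0.56 to -0.049 against empty vector. Of the 42 collagen genes, 17 changed sign in shIRF7 against both controls with at least 1 array left out, 9 of them without empty vector replicate 1; the cause was not tested. Among the 21 genes under the rule for values on every array these were 5. Col3a1 ranged from -0.52 to 0.20, Col4a1 from -0.69 to 0.18, Col5a1 from -0.47 to 0.017, Col14a1 from -0.85 to 0.14 and Col15a1 from -0.045 to 0.89.

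The replicate number as a block left 2 residual degrees of freedom and a median of -0.14, with Col1a1 the only collagen gene at an unadjusted limma p under 0.05. Arrays of the same number deviated together between both controls (correlation 0.757) but not between shIRF7 and either control (-0.31 to -0.16). The numbers were therefore not taken to pair shIRF7 with the controls. The main fit left them out between the 2 controls too. Under the block, scramble against empty vector had 0 collagen genes at an unadjusted limma p under 0.05. Over all genes the limma count of 6 was 28 without shIRF7 replicate 1 or with pooled controls, 5 without empty vector replicate 1, 2 without empty vector replicate 2, and 3 with the dim filter, with trend and robust fitting or without shIRF7 replicate 4. It was 0 under the block, with shIRF7 replicates 2 and 3 averaged, and without either scramble array or shIRF7 replicate 2 or 3. Outside the block, the smallest adjusted p of a collagen gene was that of Col1a1, from 0.120 to 0.570. Under the block Col1a1 shared an adjusted p of 0.99997 with other collagen genes, so none stood out.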

Other observations

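Over the 42 collagen genes, the closest arrays were replicate 2 of empty vector and replicate 2 of scramble (SD of their difference over genes 0.256), then shIRF7 replicates 2 and 3 (0.262). The farthest were shIRF7 replicates 1 and 3 (1.02), which belong to the same group. Over all genes the farthest pair was instead empty vector replicate 1 and scramble replicate 2 (0.942).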
